A study of Arabidopsis thaliana with 18 samples.

Results

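The class III peroxidase genes followed here, across seedlings that lack tocopherols (vitamin E) and their wild type, were AT1G30870, AT3G49960, AT5G51890, AT3G01190 and PRX52 (AT5G05340). They are 5 of the 73 class III peroxidase loci listed for this work, of which 55 had an ATH1 probe set matched to 1 gene and 37 passed the filter on low signal. All 5 passed that filter, PRX52 only through its signal in vte2 at day 3: over the other 15 arrays its mean log2 value of 5.86 was under the filter value of 5.99. The first 4 genes were chosen from their low signal in vte1 against the wild type at day 1, and PRX52 was chosen from its high signal in vte2 against the wild type at day 3. Values of those contrasts are therefore given as a description with no test. Contrasts that reuse their arrays are also given with no p. Contrasts that share no array with the choosing one were tested.

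The series held 18 ATH1 arrays in 6 groups of 3 biological replicates. Seedlings were wild type (WT, Columbia-0), vte1-1 or vte2-1, and both mutants are in the Columbia-0 background. All had 5 days of cold at 6 °C before 24 hours (day 1) or 72 hours (day 3) at 22 °C, in a photoperiod of 12 hours on agar with Murashige and Skoog salts. Each mutant was 1 allele, and each RNA came from many whole seedlings, so all organs are mixed. In such RNA, fewer cells of a type and less RNA per cell cannot be told apart. The VTE2 enzyme, homogentisate phytyltransferase, starts the committed pathway, and the VTE1 enzyme, tocopherol cyclase, acts later in it. Mutants in VTE2 lack both tocopherols and their quinol precursors, while mutants in VTE1 lack tocopherols and accumulate a redox-active precursor. No probe set was matched to VTE1 or VTE2 alone, so the mutated genes themselves are not analysed here.

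Class III peroxidases are plant haem enzymes secreted to the cell wall and the vacuole. They use hydrogen peroxide to oxidise phenolic compounds, among them the monolignols that polymerise to lignin, and can thereby cross-link and stiffen walls. In another reaction cycle they form reactive oxygen species that can cleave wall polysaccharides. The family is large in Arabidopsis, and many of its genes are transcribed mainly in roots, which emerge and elongate during the days sampled here. PRX52 is known for a part in the lignification of stems. No individual role is given for the other 4 genes, since the annotation used here names them by locus only.

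The arrays of replicate 3 stood apart from replicates 1 and 2. Within each day 1 group replicate 3 had the highest median signal (143.8 to 161.25 against 121.8 to 135). It also had the lowest 3′ to 5′ ratio of the GAPDH control in all 6 groups (log2 -0.62 to 0.43 against 0.24 to 1.13). The array medians were higher at day 3 (164.1 to 180.95), and centring every array on its median would remove 0.25 to 0.39 log2 units from each change between days and at most 0.11 from each difference between genotypes. Whether RNA or seedling batches account for the difference of replicate 3 was not tested. Results that depend on it are given with and without replicate 3, a choice made after seeing the data.

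At day 1, AT1G30870, AT3G49960, AT5G51890 and AT3G01190 were all far lower in vte1 than in WT and vte2, and 2 of the 3 vte1 arrays were at or near background. For AT1G30870 the WT arrays read 1394.8, 1260.5 and 1490.8 signal units, the vte1 arrays 5.4, 28.2 and 440.6, and the vte2 arrays 852, 976 and 6667.7 (replicates 1, 2 and 3 here and below). Every vte1 array lay below every array of the other genotypes, and replicate 3 was the highest array in both mutants. For AT3G49960 the WT arrays read 590.4, 596 and 1136.4, the vte1 arrays 1.9, 18.5 and 276.2, and the vte2 arrays 382.2, 353 and 5823.2. Replicate 3 was again the highest array in both mutants, and every vte1 array lay below all arrays of the other genotypes. In vte2, replicate 3 was 7.83 times the lowest array for AT1G30870 and 16.5 times for AT3G49960.

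The other pair differed from these in vte2. AT5G51890 read 1215.9, 1173.3 and 859.3 on WT arrays, 40.8, 55.6 and 469.7 on vte1 arrays, and 1374.2, 1353.4 and 945.5 on vte2 arrays. AT3G01190 read 477.3, 631.8 and 988.2 on WT arrays, 21.7, 27.2 and 446.6 on vte1 arrays, and 714.1, 638.4 and 1017.2 on vte2 arrays. The vte1 arrays were again below all others, and the vte2 arrays overlapped those of WT with no single high array. For AT5G51890 replicate 3 was the highest array in vte1 and the lowest in WT and vte2. Signals near 22 units, the amount added before taking logs, carry little order among themselves.

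**Figure D1:**
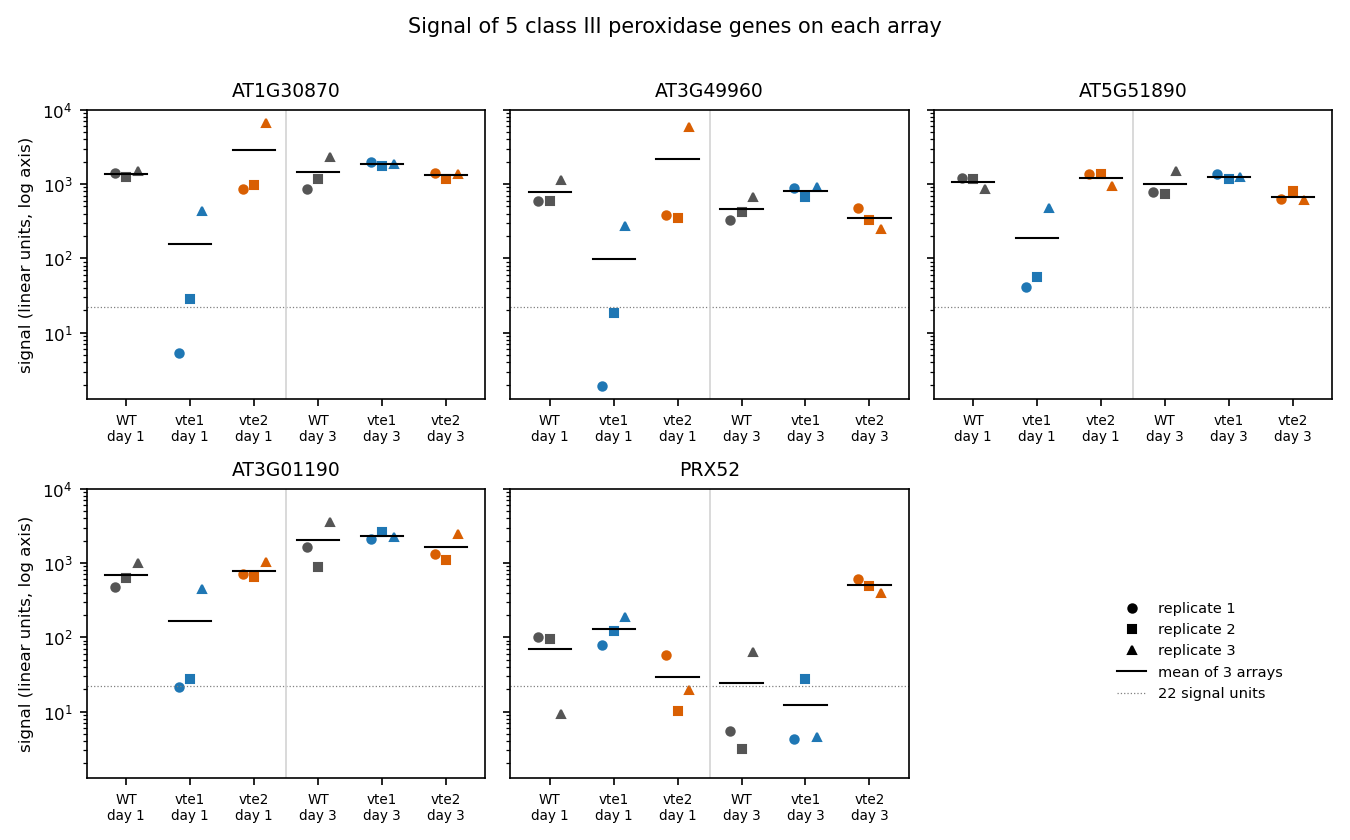
Signal of each of the 5 genes (linear signal on a log axis) on the 18 arrays, by genotype and day; symbols mark the replicate number, bars the mean of 3 arrays, and the dotted line 22 signal units. The 4 genes chosen at day 1 drop in vte1 at day 1 with replicate 3 above the other arrays, and PRX52 stands out in vte2 at day 3, at 399.1 to 613.

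As a description, the log2 changes in vte1 against WT at day 1 were -4.03 ± 0.76 (SE) for AT1G30870, -3.52 ± 0.84 for AT3G49960, -3.03 ± 0.50 for AT5G51890 and -2.78 ± 0.64 for AT3G01190. Every log2 change here is on the log2(signal + 22) scale, from 3 arrays a group, and understates changes of dim genes. Taken by replicate number, the difference of AT1G30870 was -5.69, -4.68 and -1.71, so it was smallest in replicate 3. The same held for AT5G51890, with -4.30, -3.95 and -0.84. With replicate 3 left out of every group, the 4 changes were -5.18, -4.31, -4.12 and -3.62 in the order above. The vte2 values against the same WT arrays were 0.36 ± 0.76, 0.34 ± 0.84, 0.17 ± 0.50 and 0.21 ± 0.64. They share the WT arrays with the choosing contrast and have no p.

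Genes of seed maturation and photosynthesis moved in the same contrast. Their lists were chosen with earlier results of these data known, so the calls are a description and no test is read from their shares. Of the 5 seed storage and late embryogenesis (LEA) genes with a probe set, from a list of 18, 4 were higher in vte1 than in WT at day 1 (0.201% of all probe sets), and the summed signal of the 5 was 339.9 to 3857 in WT, 4204 to 22410 in vte1 and 1210 to 1647 in vte2. Among 8 of 42 listed photosynthesis genes with a probe set, 3 were lower in vte1, against 1.89% of all probe sets (sum 13190 to 19400, against 23280 to 28600 in WT and 34480 to 34910 in vte2). None of these genes had a signal of 0. LEA genes are active in late seed maturation and shut down as germination proceeds. Replicate 3 of vte1, which had the highest signals of the 4 chosen peroxidases in its group, had the lowest LEA sum and the highest photosynthesis sum. Replicate 3 also had the lowest LEA sum in WT (339.9 against 3810 and 3857) and vte2 (1210 against 1647 and 1608). Its photosynthesis sum was the lowest in both (23280 in WT, 34480 in vte2). The part of LEA and photosynthesis genes in the peroxidase values was not tested.

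At day 3 the signals of the 4 genes in vte1 overlapped or exceeded those of WT, and no difference between genotypes passed the test. For AT1G30870 the WT arrays read 871, 1163.9 and 2307.5, the vte1 arrays 1964.4, 1757.2 and 1891.6, and the vte2 arrays 1406.9, 1180.2 and 1346.5. The WT arrays spanned those of both mutants. For AT3G49960 the WT arrays read 324.1, 419.5 and 660.4, the vte1 arrays 880.3, 675.3 and 901, and the vte2 arrays 481.8, 326.1 and 249.2. All vte1 arrays of AT3G49960 were above all WT and vte2 arrays.

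At day 3 AT5G51890 read 780.6, 734.6 and 1485.2 on WT arrays, 1367.2, 1177.5 and 1237.5 on vte1 arrays, and 630.9, 800.3 and 609.5 on vte2 arrays. Its vte1 and vte2 arrays did not overlap. AT3G01190 read 1641.5, 869.6 and 3558.9 on WT arrays, 2087.3, 2593.1 and 2258 on vte1 arrays, and 1320.9, 1095.6 and 2443.3 on vte2 arrays. Its genotypes overlapped throughout.

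In vte1 against WT at day 3 the log2 changes were 0.49 ± 0.76 for AT1G30870, 0.83 ± 0.84 for AT3G49960, 0.40 ± 0.50 for AT5G51890 and 0.41 ± 0.64 for AT3G01190 (limma, adjusted p = 0.832 to 0.906). In vte2 against WT they were -0.02 ± 0.76, -0.38 ± 0.84, -0.48 ± 0.50 and -0.17 ± 0.64 (adjusted p = 0.784 to 0.996). In vte2 against vte1 they were -0.51 ± 0.76, -1.20 ± 0.84, -0.88 ± 0.50 and -0.59 ± 0.64 (adjusted p = 0.43 to 0.836). None of these 12 tests reached an unadjusted limma p under 0.05. The standard errors leave room for changes of about the size seen, so a lack of difference was not shown. Each SE comes from a spread pooled over all 6 groups, day 1 included.

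These calls depended on replicate 3. With replicate 3 left out of every group, vte1 exceeded WT at day 3 by 0.87, 1.02, 0.73 and 0.95 log2 units for AT1G30870, AT3G49960, AT5G51890 and AT3G01190 (limma adjusted p = 0.0193, 0.0159, 0.0153 and 0.0139). That setting, with 2 arrays a group, called 1906 probe sets in this contrast in place of 48, so the peroxidase calls came with many others. Under it vte2 was below vte1 by log2 changes of -0.92 for AT3G49960, -0.82 for AT5G51890 and -0.94 for AT3G01190 (adjusted p = 0.0261, 0.00584 and 0.0127). With all replicates but only the 6 arrays compared, AT3G49960 (-1.20, adjusted p = 0.0235) and AT5G51890 (-0.88, adjusted p = 0.0289) passed in vte2 against vte1. No tested difference of the 4 genes passed when replicate 1 or replicate 2 was left out of every group.

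Between day 1 and day 3 the 4 genes parted. In vte1 all 4 had higher signals at day 3, by log2 4.46 ± 0.76 for AT1G30870, 3.66 ± 0.84 for AT3G49960, 3.26 ± 0.50 for AT5G51890 and 4.54 ± 0.64 for AT3G01190. These values reuse the vte1 arrays of day 1 and have no p. In WT the changes were -0.05 ± 0.76, -0.69 ± 0.84, -0.17 ± 0.50 and 1.34 ± 0.64 in the same order, also with no p. In vte2, whose arrays did not enter the choosing contrast, they were -0.44 ± 0.76, -1.41 ± 0.84, -0.82 ± 0.50 and 0.96 ± 0.64 (limma adjusted p = 0.682, 0.194, 0.207 and 0.251), and none passed even unadjusted. AT3G01190 was higher at day 3 than at day 1 on every vte2 array, while AT5G51890 was lower on every one. Without replicate 3 both passed, AT3G01190 at 0.81 (adjusted p = 0.00871) and AT5G51890 at -0.92 (adjusted p = 0.000424). The change of AT1G30870 in vte2 turned from -0.44 to 0.49, and that of AT3G49960 from -1.41 to 0.11, without replicate 3.

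**Figure D2:**
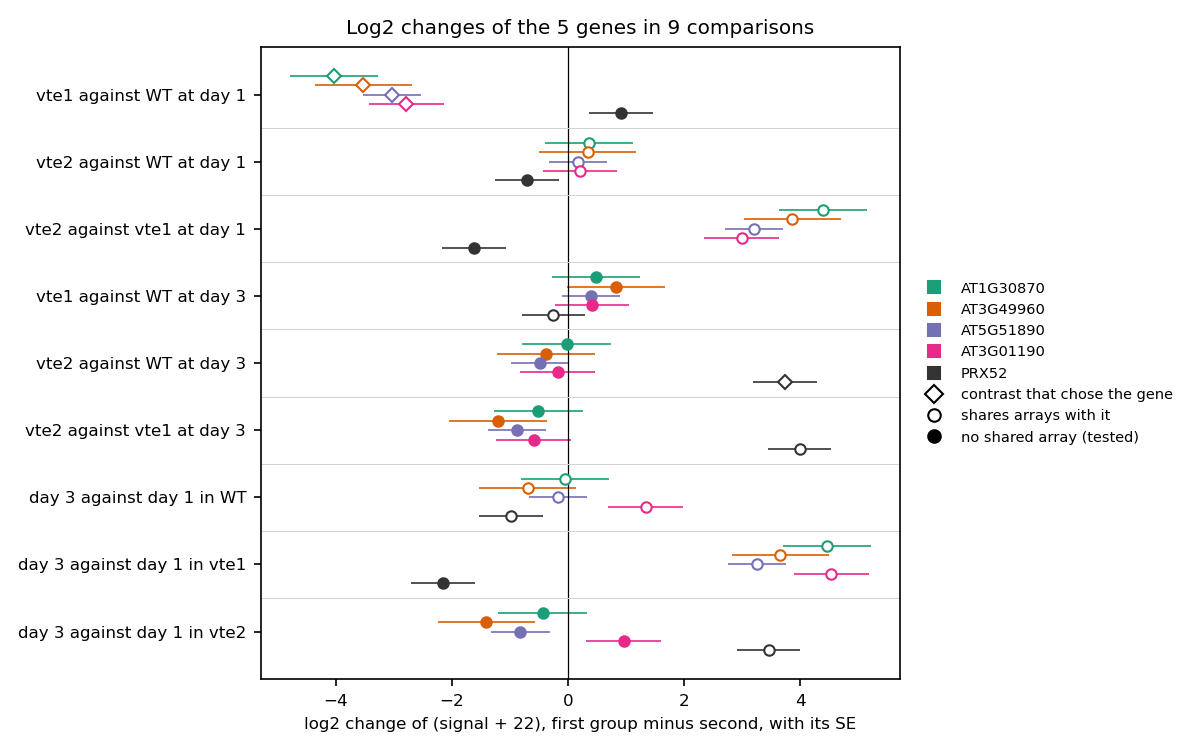
Log2 change of (signal + 22) with its SE for the 5 genes (colours) in each of 9 comparisons; diamonds mark the contrast that chose a gene, open circles contrasts that reuse its arrays and filled circles contrasts that were tested. Among the filled points only PRX52 in the comparison of day 3 with day 1 in vte1 passed, at -2.15.

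Ordered by mean signal over the 6 groups, AT1G30870 ran from 2832 ± 3320 (SD, n = 3) in vte2 at day 1 through 1871 ± 105 (vte1, day 3), 1447 ± 759 (WT, day 3), 1382 ± 116 (WT, day 1) and 1311 ± 117 (vte2, day 3) to 158.1 ± 245 in vte1 at day 1. Neighbours in that order overlapped except the last step. AT5G51890 ran from 1261 ± 97 in vte1 at day 3 through vte2 and WT at day 1 and WT at day 3 to 680.2 ± 105 for the day 3 arrays of vte2 and 188.7 ± 243 for the day 1 arrays of vte1. Again only the last neighbours did not overlap. AT3G49960 had the same highest and lowest groups as AT1G30870, at 2186 ± 3150 and 98.87 ± 154, and all neighbours in its order overlapped. For AT3G01190 the 3 day 3 groups (2313 ± 257 in vte1, 2023 ± 1380 in WT, 1620 ± 722 in vte2) came before vte2 at day 1 (789.9 ± 200), WT at day 1 (699.1 ± 262) and vte1 at day 1 (165.2 ± 244). The steps from vte2 at day 3 to vte2 at day 1 and from WT to vte1 at day 1 were without overlap.

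PRX52 had another pattern: it was high in vte2 at day 3 and low elsewhere. At day 3 it read 613, 495.8 and 399.1 on vte2 arrays, against 5.5, 3.1 and 63 on WT arrays and 4.3, 27.7 and 4.5 on vte1 arrays. The vte2 arrays lay far above all 15 other arrays, of which the highest was 186.1. At day 1 the WT arrays read 102.4, 94.2 and 9.4, the vte1 arrays 79.8, 121.5 and 186.1, and the vte2 arrays 57, 10.2 and 19.3. The day 1 signals of WT overlapped those of both mutants, and those of vte1 and vte2 did not overlap each other.

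The choosing contrast of PRX52, vte2 against WT at day 3, had a log2 change of 3.73 ± 0.55, with 4.53, 4.37 and 2.31 by replicate number. Against vte1 it was 3.99 ± 0.55 and against vte2 at day 1 it was 3.45 ± 0.55, both from the same vte2 arrays and with no p. An added amount of 64 signal units in place of 22 lowered the first value to 2.74, and 8 units raised it to 4.52, since the signals in WT are near background. The tests that share no array with it were at day 1 and within vte1. PRX52 fell in vte1 from 129.1 ± 53.6 at day 1 to 12.17 ± 13.5 at day 3. The log2 change was -2.15 ± 0.55, lower on all 3 arrays, in a contrast where 23.4% of all probe sets were called lower. In WT the change was -0.98 ± 0.55, with -2.18, -2.21 and 1.44 by replicate number, and has no p. Since the arrays that chose PRX52 also carried it past the filter, the p in vte1 is taken with no filter (limma adjusted p = 0.00312, against 0.00266 with the filter). The change in vte1 was called in all 16 settings in which it could be computed (-1.32 to -2.88). All except the fit with no filter kept the main filter, so they do not show what the filter does. PRX52 also lay below vte1 in vte2 at day 1 (28.83 ± 24.8 against 129.1 ± 53.6, -1.62 ± 0.55), which did not pass (adjusted p = 0.13 with no filter, 0.103 with it, and 0.0716 to 0.669 over the settings tried). Neither mutant against WT passed at day 1 (vte1 0.91 ± 0.55, limma adjusted p = 0.685 with no filter; vte2 -0.70 ± 0.55, adjusted p = 1 with no filter).

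The rest of the family gives the setting for these genes, and each share of calls among all probe sets is the background. In vte1 against WT at day 1, 0 family loci were higher and 6 lower, the 4 chosen genes and 2 others, while 0.201% of all probe sets were higher and 1.89% lower. Since this contrast chose the genes, nothing is read from that count. The other 2 were AT2G34060, at 12.1, 22.6 and 52.7 in vte1 against 142, 101.9 and 99.4 in WT (-1.48 ± 0.35), and AT3G21770, at 33.4, 45.8 and 4.6 against 81.1, 105.7 and 111.1 (-1.38 ± 0.34). The median log2 change of all 55 measured loci, the chosen genes included, was -0.21. Outside the 5 genes it was -0.17, against 0.01 over all probe sets. With the replicate number as a block, which the day 1 arrays bear out as a pairing, 11 family loci were lower in place of 6. Without replicate 3 the count was 16 (2 higher, 14 lower), and with replicate 1 or replicate 2 left out, or with only the 6 arrays compared, it was 0. Leaving out any 1 WT array left 2, leaving out the vte1 array of replicate 1 or replicate 2 left 1 or 2, and leaving out that of replicate 3 gave 13. The share of all probe sets called under these settings is not given, so nothing about the family is read from how the count moved.

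In vte2 against vte1 at day 1, 7 of the 32 tested loci outside the 5 genes were higher in vte2 and 0 lower, against 4.13% and 1.09% of all probe sets. This contrast reuses the vte1 arrays of the choosing one. AT4G26010 had 269.8, 234.9 and 7827.3 in vte2 and 2.8, 1.5 and 381.5 in vte1 (3.76 ± 1.05, limma adjusted p = 0.0431). AT5G17820 had 867.7, 603 and 6877.5 against 26.5, 137 and 778.5 (3.09 ± 0.83, adjusted p = 0.0355). Both had a high replicate 3 in vte2, as AT1G30870 and AT3G49960 did, and in both the highest vte1 array exceeded the lowest vte2 array. AT4G30170 had 1696.3, 1721.7 and 3267.6 against 86.8, 194.9 and 1366.4 (2.74 ± 0.60, adjusted p = 0.00969).

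The remaining 4 were AT2G37130 (2.27 ± 0.45), AT3G21770 (1.90 ± 0.34), AT1G71695 (1.39 ± 0.39) and AT2G34060 (1.34 ± 0.35), with adjusted p = 0.00225 to 0.0446. Of all 37 tested loci 11 were called here. This count and those that follow include the 4 genes chosen on the same vte1 arrays, from which nothing is read. For the altered settings the share of all probe sets called is not given. Leaving out the vte2 array of replicate 3 left 6, leaving out the vte1 array of replicate 1 or replicate 2 left 4, and with replicate 1 or replicate 2 left out of every group 1 and 0 remained. With only the 6 arrays compared none passed. In vte2 against WT at day 1 no family locus passed limma's adjusted threshold, against 0.0879% higher and 0.00628% lower of all probe sets. An unadjusted p under 0.05 was reached by 1, with no share of all probe sets given at that threshold.

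At day 3 few family loci were called between genotypes. In vte1 against WT no family locus passed the adjusted threshold (limma; 0.0691% of all probe sets higher and 0.232% lower). An unadjusted p under 0.05 was reached by 8 of 37, a threshold at which no share of all probe sets is given. Without replicate 3 the count past the adjusted threshold was 14, in the setting that, as given above, called many more of all probe sets. Without the WT array of replicate 3 alone it was 4, and without the vte1 array of replicate 3 alone it was 1. In vte2 against WT, Prx37 was higher and AT2G34060 lower among the 32 other loci, against 1.75% and 0.59% of all probe sets. Prx37 (AT4G08770) had 444.7, 342.9 and 567.3 in vte2 and 147.9, 147.1 and 108.8 in WT (1.58 ± 0.39, adjusted p = 0.0378). AT2G34060 had 267.7, 118.1 and 96.6 against 555.4, 422.6 and 355.9 (-1.44 ± 0.35, adjusted p = 0.0331).

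With PRX52 this made 2 higher and 1 lower, and 1 higher and 1 lower after centring arrays on their medians. This contrast chose PRX52, so nothing is read from its call. No family call remained without replicate 1 or without replicate 2. Leaving out 1 day 3 array, WT replicate 1 or 2 or vte2 replicate 2 or 3, left no family call apart from PRX52.

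In vte2 against vte1 at day 3, 2 of the 32 other loci were higher in vte2 and 2 lower, against 2.53% and 0.986% of all probe sets. Prx37 was higher by 2.34 ± 0.39 (vte1 21.6, 108.3 and 113.2; adjusted p = 0.00186). AT5G39580 had 2256, 3046.2 and 3416.3 in vte2 and 406.7, 473.5 and 1421 in vte1 (2.10 ± 0.47, adjusted p = 0.0151). AT2G39040 was lower, with 33.2, 80.9 and 29.5 in vte2 against 268.7, 345.8 and 271.1 in vte1 (-2.25 ± 0.45, adjusted p = 0.00722). AT1G68850 was also lower, with 178.5, 179.4 and 235.7 against 1181.6, 1008 and 622.7 (-2.09 ± 0.51, adjusted p = 0.0273).

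For these 4 loci no vte2 array overlapped a vte1 array. That was true of 30 of the 55 measured family loci, PRX52 included. The share of all probe sets without overlap is not given, so nothing is read from that count. With quantile normalization or median centring the family count in this contrast was 5 higher and 2 lower in place of 3 and 2, PRX52 included. Without replicate 3 it was 5 higher and 9 lower, without replicate 2 it was 1 and without replicate 1 it was 0. Leaving out the vte2 array of replicate 2 or the vte1 array of replicate 1 left 3. With the replicate block it was 8 and with only the 6 arrays compared it was 11. No share of all probe sets is given for these settings. The median log2 change over all 55 loci was -0.12, and outside the 5 genes it was 0.03, against -0.05 over all probe sets.

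One locus outside the filter, AT4G36430, is named here after its values were seen, so they are a description with no test. It had 641.9, 602 and 636.6 in vte2 at day 3 and at most 57.3 on any other array. Its low signal elsewhere put it below the filter, so it did not count among the 37. At day 3 the log2 change of AT4G36430 in vte2 was 3.75 ± 0.40 against WT and 3.44 ± 0.40 against vte1. Its 3 vte2 arrays averaged 626.8 ± 21.7.

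**Figure D3:**
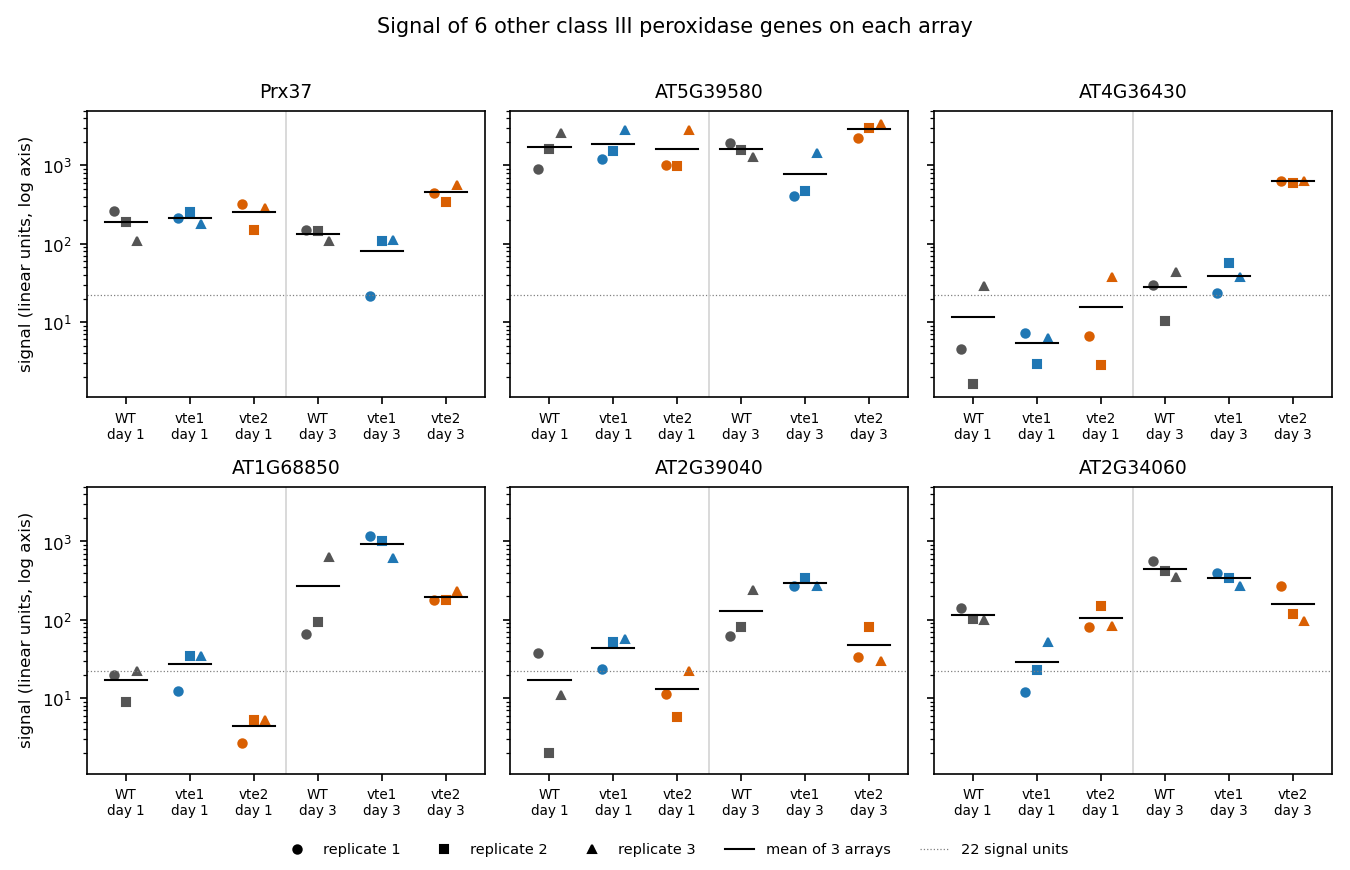
Signal (linear signal on a log axis) of 6 class III peroxidase genes outside the 5 on the 18 arrays, drawn as for the 5 genes. At day 3, Prx37, AT5G39580 and AT4G36430 are highest in vte2, at up to 567.3, 3416.3 and 641.9, and AT1G68850 and AT2G39040 are highest in vte1 by mean.

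Many family genes rose from day 1 to day 3 in each genotype. From day 1 to day 3 in WT, 17 of the 37 loci were higher and 2 lower (45.9% and 5.41%), against 24.6% higher and 22.8% lower of all probe sets. In vte1 the counts were 26 and 6, 22 and 5 of them outside the 5 genes, against 30% and 23.4% of all probe sets. In vte2 they were 15 and 2, 14 and 2 outside the 5 genes, against 21.7% and 18.5%. The median log2 change over the 55 measured loci was 0.77 in WT, 0.91 in vte1 and 0.95 in vte2, while over all probe sets it was 0.15, 0.12 and 0.08. Outside the 5 genes the median was 0.81 in WT, 0.76 in vte1 and 0.96 in vte2. The vte1 count and the vte1 median over the 55 loci include 4 genes chosen for low signal on its day 1 arrays. In vte2, 29 loci were called without replicate 3 in place of 17, with no share of all probe sets given for that setting.

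The largest rises in WT were those of AT2G37130, from 48.2, 58.1 and 86.4 at day 1 to 4517, 3880.5 and 10129.4 at day 3 (6.06 ± 0.45, limma adjusted p = 4.78e-09), and AT5G66390, from 8, 2 and 1.9 to 587.7, 474.3 and 1149.6 (4.78 ± 0.44, adjusted p = 8.58e-08). Both rose in the mutants too, by 7.02 ± 0.45 and 4.83 ± 0.44 in vte1 and by 5.15 ± 0.45 and 4.30 ± 0.44 in vte2. AT5G14130 (3.77 ± 0.61), AT4G33420 (3.63 ± 0.35), AT5G15180 (3.60 ± 0.47), AT2G35380 (3.13 ± 0.42), AT1G44970 (2.84 ± 0.46) and AT3G21770 (2.60 ± 0.34) rose in WT as well (adjusted p = 1.24e-07 to 5.26e-05). All 6 were also called higher in both mutants. AT1G68850 rose by 2.30 ± 0.51 in WT, where its day 3 arrays ranged from 66.6 to 642.1.

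AT4G31760 was the one locus called lower in all 3 genotypes, from 267.1, 395.7 and 217.5 to 15.6, 6.5 and 68.7 in WT (-2.74 ± 0.40), by -2.69 ± 0.40 in vte1 and by -2.82 ± 0.40 in vte2 (adjusted p = 1.32e-05 to 1.67e-05). The other locus lower in WT was AT2G24800 (-0.91 ± 0.36, adjusted p = 0.0434). Beside these, AT1G30870, AT3G49960 and AT5G51890 had day changes of -0.05 to -0.69 in WT and -0.44 to -1.41 in vte2, as given above.

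**Figure D4:**
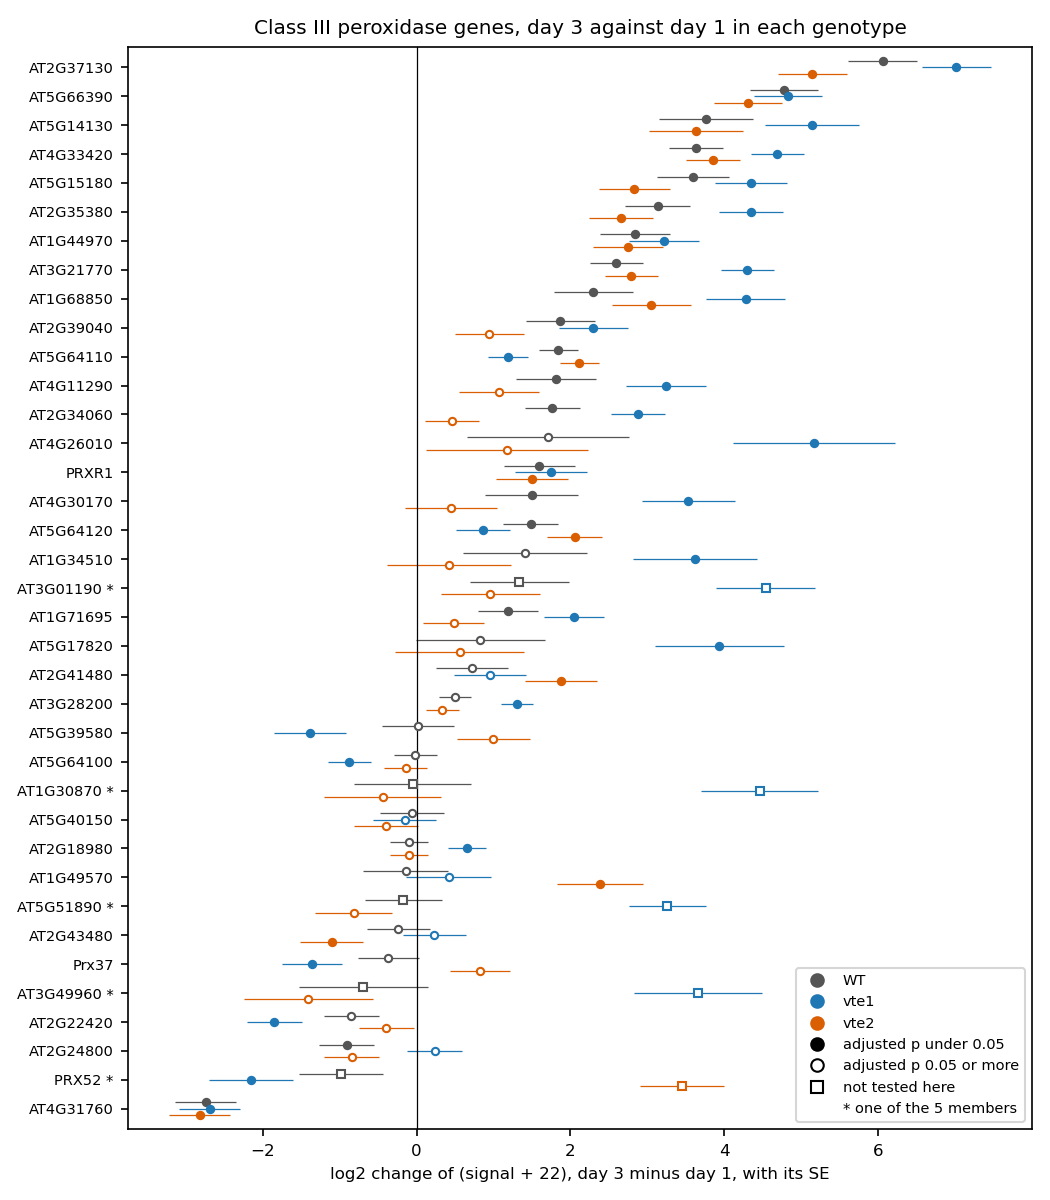
Log2 change of (signal + 22) from day 1 to day 3 with its SE for the 37 tested class III peroxidase genes in WT, vte1 and vte2, ordered by the WT value; filled circles passed an adjusted p of 0.05 and squares mark values of the 5 genes (starred) that were not tested. AT2G37130 is at the top with 6.06 in WT and AT4G31760 at the bottom with -2.74, and the starred genes other than PRX52 lie far to the right in vte1.

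Whether a mutant's difference from WT changed between the days was tested in an interaction contrast for the 32 other tested loci. None passed the adjusted threshold (limma; 1.06% of all probe sets did for vte1 and 0.201% for vte2). The locus nearest to it was AT3G21770 in vte1 (1.70 ± 0.49, adjusted p = 0.103). An unadjusted p under 0.05 was reached by 12 for vte1 and 3 for vte2. The share of all probe sets at that unadjusted threshold is not given, so nothing is read from these 2 counts. The values for the 4 chosen genes in vte1 were 4.51 ± 1.08, 4.35 ± 1.19, 3.43 ± 0.71 and 3.20 ± 0.91 for AT1G30870, AT3G49960, AT5G51890 and AT3G01190. For PRX52 in vte2 the value was 4.44 ± 0.77. These 5 contain the choosing contrasts and have no p.

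Genes of related chemistry were sparse on the list with 1-gene probe sets. Their lists too were chosen with earlier results of these data known, so their calls and p are a description. For lignin monomer synthesis, 2 of 18 listed genes were measured: HCT, which makes shikimate esters on the way to guaiacyl and syringyl units, and CCR2, a cinnamoyl-CoA reductase. Both rose from day 1 to day 3 in each genotype, HCT by log2 1.32 ± 0.27 in WT and CCR2 by 2.31 ± 0.44. HCT was also higher in vte2 than in vte1 at day 1 (1043.1, 1205.6 and 1070.6 against 497, 541.3 and 414.7; 1.16 ± 0.27, limma adjusted p = 0.0159). It was the one gene of the pair called between genotypes.

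Of 10 listed NADPH oxidases, enzymes that supply the superoxide from which hydrogen peroxide forms, 3 were measured and 1 passed the filter. AT1G19230 rose in vte1 from day 1 to day 3 (1.73 ± 0.43, limma adjusted p = 0.00218) and differed between no genotypes by the test. Of 11 ascorbate peroxidases and catalases, which remove hydrogen peroxide inside the cell, 2 were measured. TAPX, the thylakoid enzyme, was lower in vte2 than in vte1 at day 3 (2249.7, 1728.8 and 733.4 against 3776.6, 3524.5 and 2977.2; -1.25 ± 0.32, adjusted p = 0.0368). SAPX, the stromal enzyme, was called between no genotypes and fell between the days in WT (-0.80 ± 0.27, adjusted p = 0.0197) and vte2 (-1.01 ± 0.27, adjusted p = 0.00545). None of 16 listed xylem and endodermis wall genes had a 1-gene probe set.

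The genes whose pattern was most like each member were sought among 8710 one-gene probe sets by Pearson r of log2(signal + 22) over the 18 arrays, which share their groups, so r is a description. AT1G30870 was most like JAL22, a jacalin-related lectin (r = 0.968), EXPA7, an expansin of root hairs (0.953), AT2G41970 (0.950), AT3G49960 (0.949) and GH9C1, a glycosyl hydrolase (0.949). AT3G49960 was most like EXPA7 (0.954), AT2G34910 (0.950), AT1G30870 (0.949), GH9C1 (0.942) and AT2G45750 (0.941). Leaving out the 3 vte1 arrays of day 1, which carry most of the range, r between AT1G30870 and AT3G49960 was 0.902, and with EXPA7 it was 0.866 and 0.851.

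The resemblance of AT5G51890 and AT3G01190 to the other chosen members rested on the 3 vte1 arrays of day 1. The r of AT5G51890 was 0.907 over 18 arrays and 0.114 over 15 with AT1G30870, and 0.821 and 0.2 with AT3G49960. That of AT3G01190 was 0.881 and 0.286 with AT1G30870, and 0.737 and 0.010 with AT3G49960. Between AT5G51890 and AT3G01190 it was 0.850 and -0.034. The genes most like AT5G51890, AT5G20740 (0.937), AT3G50640 (0.927), AT3G62960 (0.920), AT4G23670 (0.916) and AT1G68780 (0.916), had r of 0.251 to 0.768 over the 15 arrays. AT3G01190 was most like AT4G30170, another class III peroxidase (0.973, and 0.898 over 15 arrays), AT1G29670 (0.971), AT3G05920 (0.967), AT1G74470 (0.953) and AT1G12080 (0.952).

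PRX52 had no such partner among the other 4 genes (r = -0.332 to -0.156). It was most like AT1G65500 (0.826), AT4G34180 (0.817), AT5G55530 (0.794), AT3G54150 (0.773) and AT4G12490 (0.764). AT1G65500 had 955, 1655.4 and 1185.3 in vte2 at day 3 and at most 73.1 elsewhere. AT4G12490 had 5413.7, 3975.3 and 3312.2 there and at most 95.7 elsewhere.

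**Figure D5:**
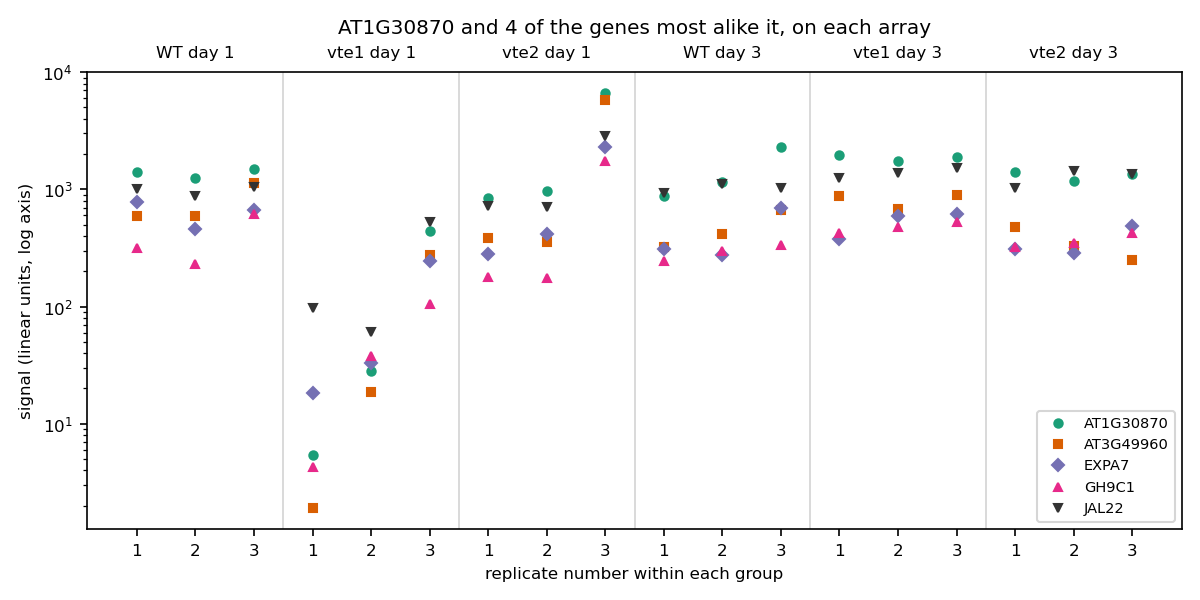
Signal (linear signal on a log axis) of AT1G30870 and 4 of its 5 most similar genes on each of the 18 arrays, by group and replicate number; levels are not compared between genes. The lowest array of each of the 5 genes is a vte1 array of day 1. For AT3G49960 replicate 3 of that group, at 276.2, is above replicate 3 of vte2 at day 3, at 249.2. All 5 are highest on replicate 3 of vte2 at day 1, where AT1G30870 reads 6667.7 and EXPA7 reads 2313.1.

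Of 25 listed root hair genes, 4 had a 1-gene probe set, and 1 of them was called in vte1 against WT at day 1. This list was also chosen with earlier results of these data known, so its calls and p are a description. EXPA7 was lower in vte1 than in WT (18.3, 33.2 and 244.7 against 780.5, 455.8 and 662; -2.93 ± 0.65, limma adjusted p = 0.0197), where 1.89% of all probe sets were lower. EXPA18, the other root hair expansin, did not pass (-1.84 ± 0.66, adjusted p = 0.222) and had 43.3, 48.2 and 79.5 in vte1, 191.2, 218 and 397.7 in WT and 154.8, 197.5 and 2446.8 in vte2. XTH26, a xyloglucan endotransglucosylase, had its highest signal, 1380, on the same vte2 array, and overlapped between vte1 and WT. SCN1, a regulator of hair positioning, stayed between 1151.8 and 2293.7 on all arrays. The summed signal of the 4 was 1244 to 1920 in vte1, 2072 to 2709 in WT and 1890 to 7883 in vte2 at day 1. At day 3 no root hair gene was called between genotypes by limma, and their part in the peroxidase values was not tested.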

How the data were processed

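Values were used as the authors deposited them: a linear intensity for each probe set, from MAS5 (per the submitters' processing notes), with no software version or scaling target found in those notes or the labels. The authors' values had a trimmed mean (2% off each end) of 500 to 500.1 on every array. Replicates are biological per the labels. The number of arrays limits the precision.

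From these, log2(signal + 22) was computed, 22 being about the 20th percentile of all signals (21.9). The 64 control probe sets were left out, and probe sets above the 30th percentile of mean log2 signal were tested (15922 of 22746). limma 3.58.1 in R 4.3.3 (lmFit, eBayes with trend) was fitted on all 18 arrays with 1 mean per group, with Benjamini-Hochberg adjustment within each contrast and a threshold of 0.05. The fit was tested on simulated data. Figures used matplotlib 3.10.9.

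Of 13513 probe sets with 1 gene, 13436 matched a locus of the RefSeq table (TAIR10.1), used for names only. The members and lists were chosen with earlier results of these data known. Genes named are the 5 members, other family loci called in a contrast (at most 10 each, by size), the 5 genes most like each member, and called genes of the other lists (at most 4 a contrast).

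Deviations of same-numbered arrays from their group means correlated at 0.254 to 0.318 at the lowest between the day 1 groups and at 0.15 between WT and vte2 at day 3, so these count as paired. For vte1 with WT or vte2 at day 3 the lowest was -0.00757 and 0.0333, and across days none passed 0.1. The main fit did not use the pairing, which enters only in the replicate block. Alternatives changed the added amount (8, 64), filter (none, 50th percentile), scaling, replicate block, arrays fitted and replicates kept.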

Additional observations from a re-analysis of the deposited data

Results flagged for a closer look

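In vte1, 3 class III peroxidase genes had all arrays below WT at day 1 and all arrays above WT at day 3, so that the mutant's difference from WT pointed in opposite directions on the 2 days. They were 3 of the 37 tested loci (8.11%), against 1.23% of all probe sets tested. The day 1 side of AT3G49960 and of the 3 genes chosen with it was fixed by their choice, so nothing is read from that share. The change of that difference was 4.35 log2 units for AT3G49960, which holds the contrast that chose the gene and was not tested. It was 1.7 for AT3G21770 (interaction, limma adjusted p = 0.103) and 0.81 for AT3G28200 (adjusted p = 0.248), neither past the threshold. AT3G28200 had 556, 396.8 and 512.8 in vte1 against 590.3, 680.7 and 587.5 in WT at day 1, and 1180.1, 1168.7 and 1348.8 against 811.4, 733.8 and 1155 at day 3. Groups of 3 arrays were not tested for single outlying arrays.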

How the results depend on the processing

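Replicate 3 and the small groups limit these results, and signals near 22 units limit PRX52. Family counts include the chosen genes, and nothing is read from their calls in contrasts given with no p. The share of all probe sets called under each setting is not given beside the counts. Their moves are therefore not read as particular to the family. Counts of the 37 family loci called moved as follows, the main count first. In vte1 against WT at day 1 (6) it was 3 with an added 64, 11 with the replicate block, 0 with only the 6 arrays compared and 0 to 16 with replicates left out. In vte2 against vte1 at day 1 (11) it was 0 with only the 6 arrays and 0 to 16 with replicates left out. In vte1 against WT at day 3 (0) it was 1 with an added 64, 1 with the block and 0 to 14. In vte2 against WT at day 3 (3) it was 1 with an added 8, 5 with 64, 1 with the filter at the 50th percentile (which leaves PRX52 out) and 0 to 5. In vte2 against vte1 at day 3 (5) it was 10 with 64, 3 with that filter, 8 with the block, 11 with only the 6 arrays and 0 to 14. From day 1 to day 3 that filter, which tests fewer genes, gave 9 in WT (19), 20 in vte1 (32) and 6 in vte2 (17), and leaving out replicates gave 14 to 27, 25 to 32 and 14 to 29. The replicate block changed no call among the tested differences of the 5 genes. It added AT3G01190, there given with no p, to the WT count between days (22, of which 21 outside the 5). A filter on the 15 arrays outside vte2 at day 3, chosen after seeing the data, leaves PRX52 out and gives it no value. The PRX52 change in vte2 against WT at day 3 was 2.74 with an added 64.

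With only the 6 arrays compared, -1.20 (AT3G49960) and -0.88 (AT5G51890) in vte2 against vte1 at day 3 passed, as did -0.82 (AT5G51890) and 0.96 (AT3G01190) between days in vte2. With replicates left out, vte1 against WT at day 3 ran from 0.15 to 0.88 (AT1G30870), 0.55 to 1.09 (AT3G49960), 0.20 to 0.73 (AT5G51890) and -0.15 to 0.95 (AT3G01190). In vte2 against WT it ran from -0.37 to 0.37, -0.84 to 0.10, -0.78 to -0.09 and -0.66 to 0.34 (AT1G30870, AT3G49960, AT5G51890, AT3G01190), with -0.09 for AT5G51890 without replicate 3. In vte2 against vte1 it ran from -1.44 to -0.92, -1.04 to -0.77 and -0.94 to -0.27 (AT3G49960, AT5G51890, AT3G01190). Between days in vte2 it ran from -1.01 to 0.51, -2.27 to 0.11, -0.99 to -0.68 and 0.62 to 1.19, in the order of the first 4 ranges. The cause was not tested.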
